A study of Mus musculus with 14 samples.

Results

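Skin regulatory T (Treg) cells of mice with and without the glucocorticoid receptor were compared by RNA sequencing. Of the 24537 genes of the deposited Treg table, 3996 are described here. They had a mean of at least 5 TPM (a transcript abundance scaled by length and library size) over the 8 Treg libraries, and a mean in 6 libraries of hair follicle stem cells (HFSC) below their mean in the control Treg libraries. The HFSC condition was set so that transcripts of hair follicle epithelium would not lead the description. A further 4604 genes reached 5 TPM and did not meet it. Among genes past the threshold below, those just inside the rule were Aim1, Srp19, Spcs1 and Ptgs2, with HFSC means at 0.902, 0.860, 0.819 and 0.816 of the control Treg mean. Those just outside were Adam9 and Stard4 (each 1.02), 2010107E04Rik (1.05) and Zfp36l2 (1.43). The 2 tables were made separately, so the HFSC values served only to choose genes.

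The 3 control libraries, labelled GR WT, came from mice the labels call wild type. The 5 knockout libraries, labelled GR KO, came from Foxp3YFP-Cre GRfl/fl mice, in which a Cre fused to yellow fluorescent protein and expressed from the Foxp3 locus deletes the floxed receptor gene in Foxp3-expressing cells. The labels do not say whether the wild-type mice carry the Cre. Every Treg library was made from cells sorted by flow cytometry from skin 24 h after hair depilation, which starts a new hair cycle. Strain background, age, the number of mice and whether each library is 1 mouse are not given, so each p-value reflects library-to-library spread alone, part of which may be technical. The HFSC libraries, 3 per genotype, were taken 4 days after depilation.

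The glucocorticoid receptor, encoded by Nr3c1, is a nuclear receptor that is held in the cytoplasm by heat shock chaperones until it binds a steroid such as corticosterone. It then enters the nucleus, binds DNA at palindromic elements and raises genes such as Tsc22d3, or restrains genes driven by other factors such as NF-kB. Treg cells, defined by the transcription factor Foxp3, restrain immune responses, and in skin many of them sit near hair follicles.

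The libraries held 9167608 to 14461504 recovered tags. The labelled cell type was checked on 4 markers. Foxp3 was at 159.8 to 281 TPM in GR WT and at 137 to 205 TPM in GR KO. Il2ra, Ctla4 and Ikzf2 were each above 140 TPM in every library, the lowest value being 144 TPM for Ikzf2 in KO replicate 1. All 8 libraries therefore held abundant Treg transcripts. Transcripts of keratinocytes and myeloid cells were present too and were more abundant in GR WT. The keratinocyte list summed to 451 to 762 TPM in GR WT and 67.5 to 170.1 TPM in GR KO, although none of its 14 genes is among the 3996. The macrophage and monocyte list summed to 699 to 1087 and 465 to 606 TPM, and the neutrophil list to 264 to 605 and 60.4 to 118 TPM. Ctss made up much of the macrophage sums, at 396 to 567 TPM in GR WT and 354 to 441 TPM in GR KO, with overlap. The part of these keratinocyte and myeloid transcripts in the results below was not tested.

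Nr3c1 itself (NM_008173, chromosome 18, 39410545 to 39487245, minus strand, here and below on mm10) was at 171, 233 and 229.7 TPM in GR WT replicates 1 to 3. In GR KO replicates 1 to 5 it was at 106, 125, 106, 171 and 139 TPM. KO replicate 4 reached the level of WT replicate 1, so the groups overlapped. The means were 211 ± 35.3 TPM (SD, n = 3) and 129.5 ± 27.3 TPM (SD, n = 5), a log2 difference of -0.71 (SE 0.17) that did not pass over all genes (limma adjusted p = 0.0722). The exact two-sided permutation p was 0.0536, where 0.0179 is the smallest that 56 assignments allow. Over 19 other settings the limma adjusted p ranged from 0.0191 to 0.276, and without KO replicate 4 it was 0.027. The row adds up reads over the whole transcript, and the files do not show which exons were deleted.

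Of the 3996 genes, 76 passed an adjusted p of 0.05 by limma, 16 higher and 60 lower in GR KO. That is 1.9% of them, beside 1.51% of all 11579 genes tested. These counts depended on single libraries: leaving out WT replicate 3 gave 7 higher and 30 lower genes, and leaving out WT replicate 1 gave 6 and 41. Without KO replicate 2, 3 or 5 the higher genes numbered 9, 8 and 6. By direction the shares were 0.4% higher and 1.5% lower, beside 0.199% and 1.31% of all tested genes. The rule compares HFSC with the GR WT mean, so genes near its boundary are tilted to a high GR WT value. With the mean of all 8 Treg libraries in its place, 20 higher and 57 lower genes were counted, and the lower genes Ptgs2, Foxp1 and Aim1 dropped out. At an unadjusted p of 0.05, 711 of the 3996 passed, which is 17.8%, beside 14.1% of all tested genes. The median log2 difference of the 3996 was -0.01, against -0.04 over all tested genes. For 393 of them, or 9.83%, the KO and WT libraries did not overlap, beside 8.52% of all tested genes, and all 76 called genes were among these. Of the 60 lower genes, 19 had a GR KO mean below 5 TPM, so their level in GR WT brought them over the 5 TPM of the rule. The plot of differences by abundance shows most genes near 0 at every level. In bulk libraries such as these, fewer cells of a type and less RNA per cell cannot be told apart.

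**Figure D1:**
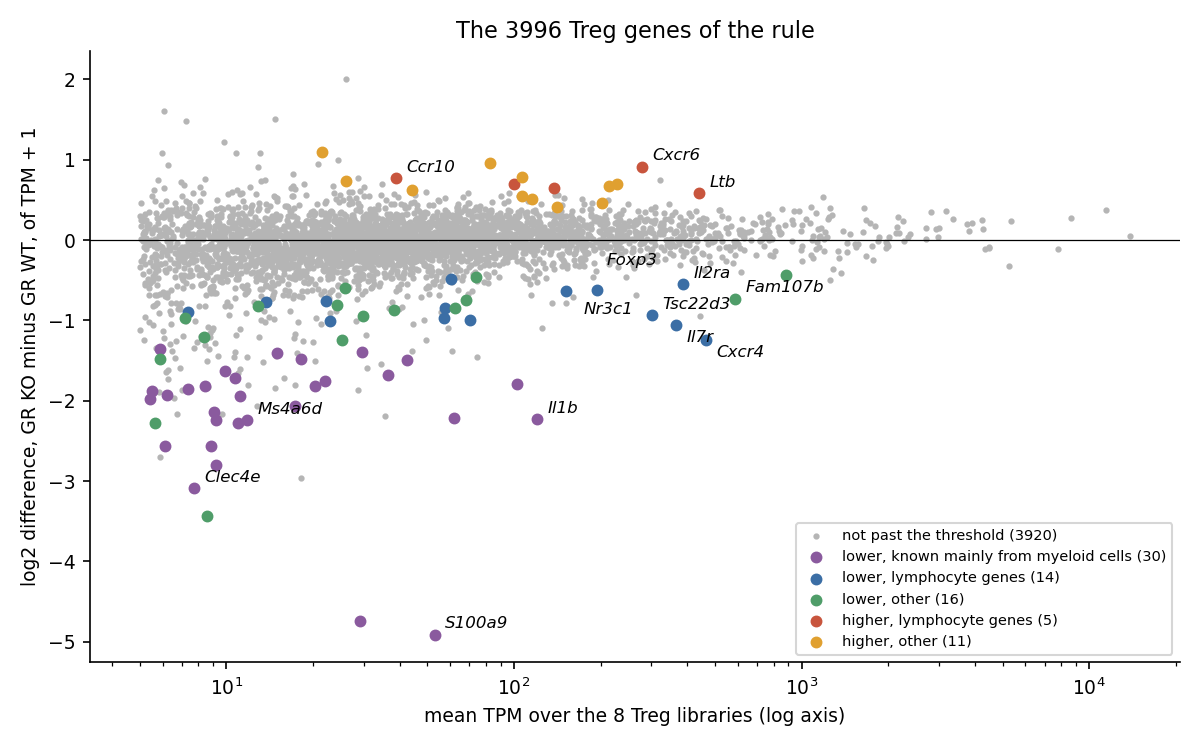
Each point is 1 of the 3996 genes, with its mean TPM over the 8 Treg libraries on a log x axis and the log2 difference of GR KO minus GR WT on the y axis; coloured points passed the limma threshold. The lower genes known mainly from myeloid cells reach -4.91 (S100a9), and Cxcr4, Il7r and Tsc22d3 stand below 0 among abundant genes. The green point at -3.44 is Mir7091, which held at most 14 tags in any library.

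Known roles of the 76 genes, grouped after their values were seen, divided the 60 lower genes into 30 known mainly from myeloid cells, 14 with known roles in lymphocytes and 16 others. The median log2 difference was -1.93 in the first group, -0.87 in the second and -0.86 in the third. These medians cover only genes that passed the threshold, so they do not compare the kinds of gene at large. Median GR WT levels were 22.1, 91.8 and 37.1 TPM. The median GR KO level of the first group was 4.59 TPM, below the 5 TPM of the rule. The groups differed in which control library was highest. Of the 30 myeloid-type genes, 27 had their lowest GR WT value in WT replicate 2. Of the 14 lymphocyte genes, 12 had their highest GR WT value in that same library, and so did 12 of the 16 others. WT replicate 2 also had the lowest macrophage and neutrophil sums of the 3 GR WT libraries.

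**Figure D2:**
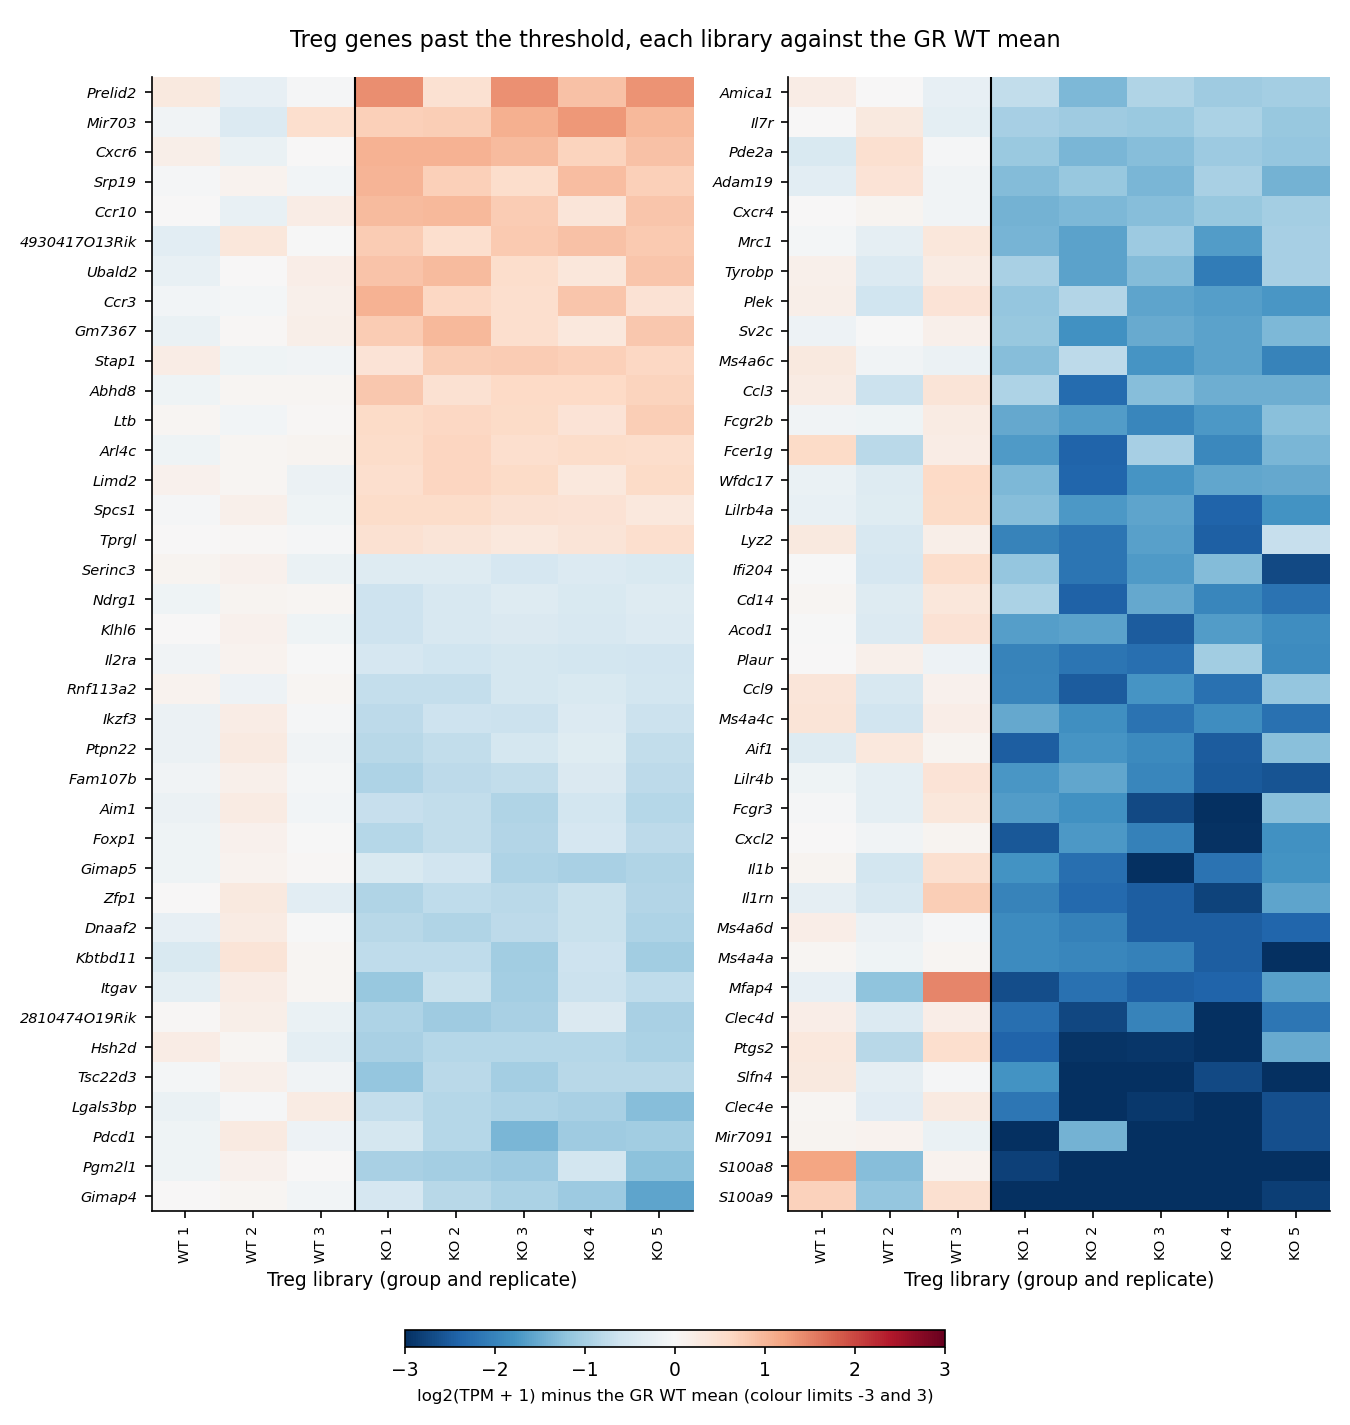
Each row is 1 of the 76 genes that passed the limma threshold and each column a Treg library; colour is log2(TPM + 1) minus the GR WT mean, drawn between -3 and 3, with values beyond shown at the limit. The 5 KO columns lie on one side of the 3 WT columns in every row, and S100a8, S100a9, Ptgs2 and Mfap4 differ visibly among the WT libraries.

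The gene lists were chosen with earlier results of these data known, so their counts are no independent test. Among 23 tested glucocorticoid receptor target genes, 4 fell and none rose by limma, with a list median of -0.23 beside -0.04 for all tested genes. The median was -0.35 without WT replicate 2 and -0.16 without KO replicate 1. At an unadjusted p of 0.05, 12 of the 23 passed, and limma voom on recovered tags called 7, the same 4 and Fkbp5, Klf9 and Mt2. Over all tested genes 1.51% passed by limma and 14.1% had an unadjusted p below 0.05. The counts of this list and of those below are to be read beside these shares. The 3 of the 4 that belong to the described genes were Tsc22d3, Cxcr4 and Il7r. Tsc22d3 (NM_010286, chromosome X, 140539529 to 140543187, minus strand) encodes the glucocorticoid-induced leucine zipper, an inhibitor of inflammatory transcription factors. Its level was 415, 478 and 399.9 TPM in GR WT and 193, 243, 211, 242 and 239 TPM in GR KO, so every KO library lay well below every WT library. The log2 difference was -0.93 (95% interval -1.17 to -0.70, limma adjusted p = 0.00214), and the call held in all 19 other settings. The metallothionein gene Mt1 is the other one that fell (133 ± 23.5 to 61.3 ± 18.9 TPM, SD, n = 3 and 5, limma adjusted p = 0.042), a call that ended without WT replicate 1 or 3 or KO replicate 1, 3 or 5. It is not among the described genes because HFSC held more of it. Fkbp5, which encodes a co-chaperone of the receptor, was at 34.3 to 51.3 TPM in GR WT and 20.1 to 29.4 TPM in GR KO without passing (limma adjusted p = 0.0793). The other 5 described targets had differences between -0.23 and 0.28 and none passed; among them Dusp1, a MAP kinase phosphatase gene, was at 1525 ± 14.2 and 1382 ± 136 TPM, and Nfkbia, the gene of an NF-kB inhibitor, had a log2 difference of -0.10.

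Genes that handle the receptor were read beside its targets. None of 14 tested chaperone and cofactor genes passed by limma, although 8 had an unadjusted p below 0.05 and limma voom on recovered tags called Ncoa2 and Ncoa3 lower. The coactivator genes Ncoa3 (40.9 ± 6.88 TPM in GR WT and 26.9 ± 2.91 TPM in GR KO, limma adjusted p = 0.0765) and Ncoa2 (23.4 to 36.2 TPM and 12.8 to 23.4 TPM, limma adjusted p = 0.137) had the smallest p. Hsp90aa1, the gene of a chaperone that holds the receptor in its steroid-binding form, was at 419 ± 32.6 and 368 ± 52.4 TPM. Hsd11b1, whose enzyme regenerates active glucocorticoid inside cells, was at 85.1 to 93.4 TPM in GR WT and at 98.1 to 126 TPM in GR KO. Its groups did not overlap, and it did not pass (limma adjusted p = 0.302).

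The DNA upstream of the called genes was read from the RefSeq promoter table of build GRCm38.p6, which holds 250 bases before to 50 bases after each start. The 2 patterns below were searched on both strands. The core ACANNNTGT is the spaced palindrome at the centre of a receptor element, and TGTTCT is the conserved half-site, which reads AGAACA on the other strand. A core can run into a half-site by sharing its TGT. Of 32851 windows of all genes, 6.85% held the core and 18.97% the half-site. Of the 60 lower genes, 49 matched the table, with 65 windows, of which 9 held the core and 16 the half-site. These are shares of 13.85% and 24.62%, and no window held a core running into a half-site, beside 0.414% of all windows. The 9 core windows belong to 8 genes, because overlapping windows of Fcgr3 share a site, and the 16 half-site windows to 15 genes. Over all genes, 2249 core windows belong to 2135 genes. The shares for the 3996 genes and for the 16 higher genes are not given, because only 76.2% and 62.5% of them matched. A match describes the letters in the window and does not show binding.

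The 4 upstream stretches below belong to lower lymphocyte genes that hold a half-site and are printed 5′ to 3′ on the gene's strand, ending at the base before the start, with matches to either pattern in capitals. They are Cxcr4 (chr1:128592300-128592549, minus strand), Tsc22d3 (chrX:140600523-140600772, minus strand), Pdcd1 (chr1:94052554-94052803, minus strand) and Ptpn22 (chr3:103860027-103860276, plus strand).
Cxcr4: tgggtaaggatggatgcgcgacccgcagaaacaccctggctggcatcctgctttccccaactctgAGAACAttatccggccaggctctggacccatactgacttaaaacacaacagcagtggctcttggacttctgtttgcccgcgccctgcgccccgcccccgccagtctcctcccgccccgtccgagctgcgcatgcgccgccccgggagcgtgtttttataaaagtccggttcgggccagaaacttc
Tsc22d3: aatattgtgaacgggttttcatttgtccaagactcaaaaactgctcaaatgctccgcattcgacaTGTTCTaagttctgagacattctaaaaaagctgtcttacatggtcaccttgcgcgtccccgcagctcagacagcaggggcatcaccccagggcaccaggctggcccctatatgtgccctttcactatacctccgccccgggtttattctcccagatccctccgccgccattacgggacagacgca
Pdcd1: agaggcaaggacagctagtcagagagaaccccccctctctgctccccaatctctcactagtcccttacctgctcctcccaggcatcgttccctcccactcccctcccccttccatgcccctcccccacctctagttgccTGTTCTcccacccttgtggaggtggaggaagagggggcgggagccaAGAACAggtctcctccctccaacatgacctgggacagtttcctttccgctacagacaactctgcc
Ptpn22: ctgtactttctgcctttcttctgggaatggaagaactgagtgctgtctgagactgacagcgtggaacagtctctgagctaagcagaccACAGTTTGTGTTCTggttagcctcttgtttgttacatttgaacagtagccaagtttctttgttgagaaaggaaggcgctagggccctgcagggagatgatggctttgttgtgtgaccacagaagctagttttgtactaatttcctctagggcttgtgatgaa
The half-sites of Cxcr4 and Tsc22d3 both begin 185 bases before the start. The Tsc22d3 stretch lies before the most upstream of its 3 listed starts, which is not that of the transcript in the deposited table. Its other 2 windows held neither pattern. Pdcd1 holds a half-site on each strand, beginning 111 and 65 bases before its start. In Ptpn22 the core (from -162 to -154) and the half-site (from -154 to -149) share only 1 base, so they do not form the joined element.

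Chemoattractant receptors guide Treg cells into and within skin, and 3 of the 16 tested receptor genes passed, 1 lower and 2 higher by limma. All 16 are among the described genes, and their median was 0.02, or -0.01 without KO replicate 2. Cxcr4 (NM_009911, chromosome 1, 128588199 to 128592299, minus strand) encodes the receptor for CXCL12. Its level was 734, 774 and 673 TPM in GR WT and 269, 287, 297, 328 and 355 TPM in GR KO. The KO libraries lay close together and far below every WT library. The log2 difference of -1.24 (95% interval -1.47 to -1.01, limma adjusted p = 0.000924) passed in all 19 other settings.

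Cxcr6 (NM_030712, chromosome 9, 123806477 to 123811754, plus strand), which encodes the receptor for CXCL16 and marks T cells resident in tissue, rose. It was at 201, 156 and 181 TPM in GR WT and at 370.3, 367, 345, 285 and 329 TPM in GR KO, with the lowest KO library above the highest WT library. The log2 difference was 0.92 (95% interval 0.67 to 1.17, limma adjusted p = 0.00291). Its call was the only one among the 16 higher genes that held in all 19 settings, and Cxcr6 was at 0 TPM in HFSC.

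Ccr10, whose ligand CCL27 is made by keratinocytes, was at 26.7, 22.4 and 31.1 TPM in GR WT and at 51.7, 53.0, 45.2, 34.1 and 47.6 TPM in GR KO. KO replicate 4 lay closest to the WT range. The log2 difference of 0.77 (95% interval 0.41 to 1.12, limma adjusted p = 0.0412) held its call only when KO replicate 4 was the library left out, and lost it with median ratio or quantile scaling. Ccr3, an eotaxin receptor gene that was on none of the lists, was at 67.0, 68.1 and 78.6 TPM and at 148, 109.8, 102, 128 and 96.8 TPM. It rose by 0.69 (SE 0.14, limma adjusted p = 0.0362), and its call ended without any 1 of the WT replicates or without KO replicate 2 or 4. The skin-homing receptor genes Ccr4 and Ccr8 did not pass. Ccr8, a receptor gene prominent in tissue Treg cells, had equal means (494 ± 18.6 and 494 ± 75.6 TPM, SD, n = 3 and 5), with a 95% interval of the log2 difference from -0.27 to 0.25. Ccr4 was at 103 ± 16.1 and 98.1 ± 9.90 TPM.

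**Figure D3:**
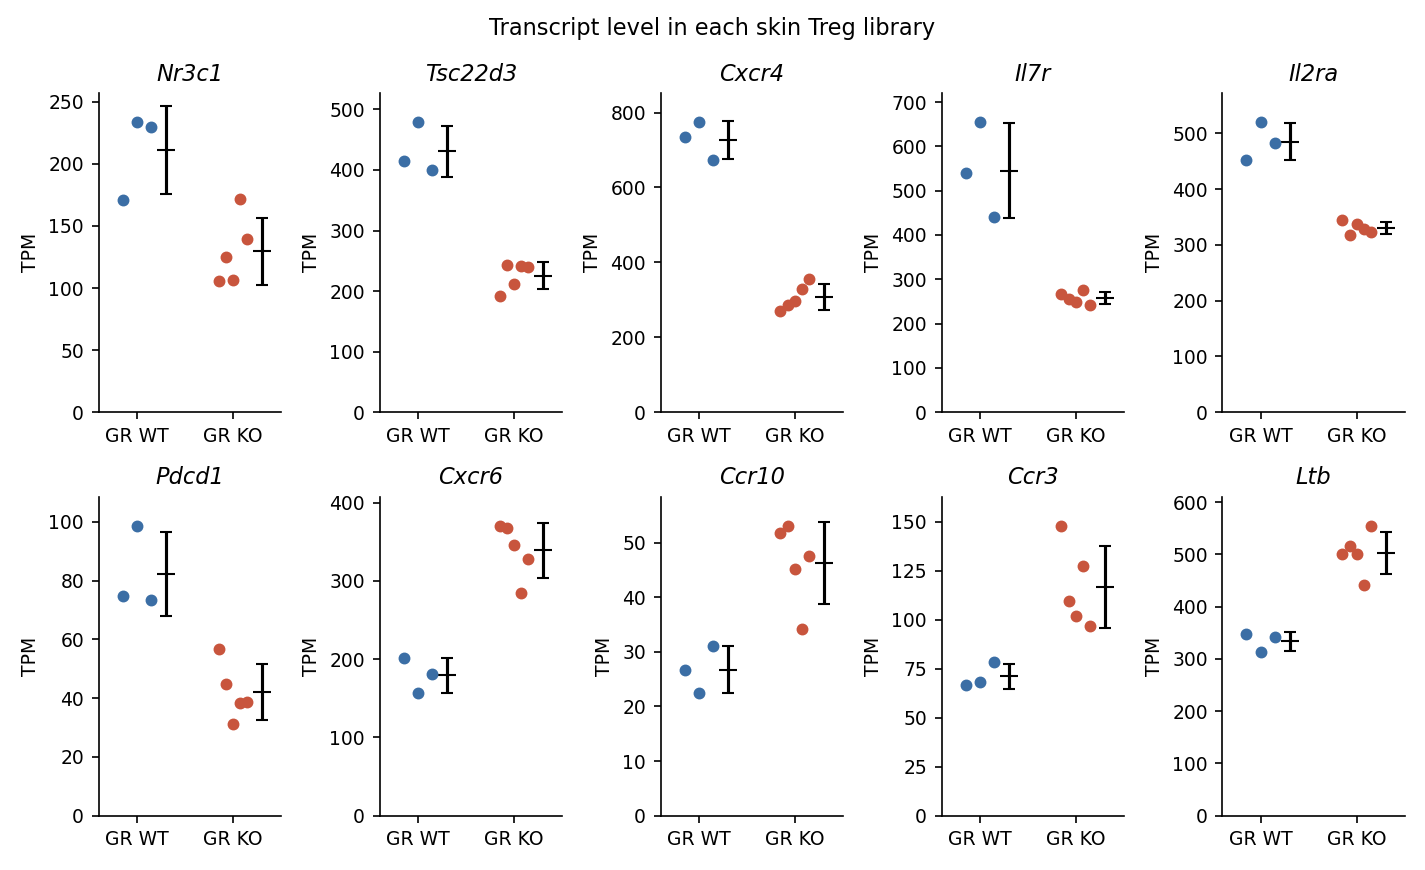
Each panel shows 1 gene, with the TPM of the 3 GR WT (blue) and 5 GR KO (red) Treg libraries as points in replicate order and the mean with SD in black; every y axis starts at 0. Only Nr3c1 overlaps between the groups, and Cxcr4, Il7r, Tsc22d3, Il2ra and Pdcd1 are lower while Cxcr6, Ccr10, Ccr3 and Ltb are higher in GR KO.

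Of 10 tested genes of T cells that recirculate through blood and lymph, 1 fell by limma. The list median was -0.46, or -0.25 without WT replicate 3, and 6 of the 7 described members had a negative log2 difference. Il7r, the interleukin 7 receptor gene (NM_008372, chromosome 15, 9506159 to 9529876, minus strand), was that one. It was at 540.1, 654 and 440.3 TPM in GR WT and at 267, 255, 249, 276 and 242 TPM in GR KO. The WT libraries differed among themselves far more than the KO libraries, and no values overlapped. The log2 difference was -1.06 (95% interval -1.32 to -0.80, limma adjusted p = 0.00214), and the call held in all 19 other settings. S1pr1, which encodes a receptor for exit into lymph, was at 37.6 to 44.6 and 21.3 to 34.2 TPM (limma adjusted p = 0.164). Of 9 tested residency genes only Cxcr6 rose, and Itgae (log2 0.15) and Cd69 (0.05), which encode retention molecules of epithelium and tissue, did not pass.

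The cytokine receptors that share the common gamma chain were represented by 19 tested genes, of which 2 fell by limma, Il7r and Il2ra. Il2ra (NM_008367, chromosome 2, 11642792 to 11693194, plus strand) encodes the alpha chain of the interleukin 2 receptor, on which Treg cells depend. It was at 453, 519.5 and 482 TPM in GR WT and at 344, 317, 338, 329 and 323 TPM in GR KO. The KO libraries lay closer together than the WT libraries, and the groups did not overlap. The log2 difference was -0.55 (95% interval -0.73 to -0.38, limma adjusted p = 0.00575), and the call held with any single library left out. The other chains, Il2rb (401 ± 66.6 and 367 ± 41.7 TPM) and Il2rg (log2 -0.22), did not pass, nor did the signalling genes Stat5a and Stat5b, each at 0.01. Cish, a feedback gene of STAT5, was at -0.22 (limma adjusted p = 0.328).

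Among 18 tested checkpoint and adenosine genes 2 fell by limma. Pdcd1 (NM_008798, chromosome 1, 94038305 to 94052553, minus strand), which encodes the inhibitory receptor PD-1, was at 74.6, 98.6 and 73.5 TPM in GR WT and at 56.7, 44.8, 31.1, 38.5 and 38.8 TPM in GR KO. The highest KO library was well below the lowest WT library. The log2 difference of -0.97 (95% interval -1.36 to -0.58, limma adjusted p = 0.0211) lost its call without any 1 of the WT replicates or without KO replicate 4 or 5. Cd200 fell too but is more abundant in HFSC and is not among the described genes. In the same list Lag3, another inhibitory receptor gene, was at 4.16 to 8.85 TPM in GR WT and 8.97 to 26.5 TPM in GR KO, with no overlap, and did not pass (limma adjusted p = 0.15). The costimulatory receptor genes Cd28 (349 ± 15.4 and 354 ± 50.6 TPM) and Icos (1820.4 ± 7.01 and 1876 ± 197 TPM) did not pass either.

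The other lower lymphocyte genes had log2 differences between -1.01 (Amica1) and -0.49 (Klhl6). Some encode regulators of lymphocyte signalling and transcription. Ptpn22, a phosphatase gene that restrains T cell receptor signalling, was at 173, 235 and 179 TPM in GR WT and at 108, 116, 135, 152 and 116 TPM in GR KO. Its log2 difference of -0.63 (limma adjusted p = 0.047) survived only the omission of KO replicate 4. Ikzf3, which encodes the transcription factor Aiolos, fell from 249 ± 34.9 to 161 ± 14.7 TPM (limma adjusted p = 0.0196), a call that ended without WT replicate 2 or 3 or KO replicate 5. Foxp1, a transcription factor gene tied to T cell quiescence, fell from 27.4 to 32.9 TPM in GR WT to 15.8 to 20.8 TPM in GR KO (limma adjusted p = 0.0165), a call that ended without WT replicate 2 or 3. Its HFSC mean (23.4 TPM) exceeded its mean over all 8 Treg libraries (22.2 TPM), so its GR WT level brought it into the rule.

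Adhesion genes and GTPase genes were also among them. Itgav, which encodes the integrin alpha V chain that takes part in activating latent TGF-beta, was at 64.5, 93.3 and 83.1 TPM in GR WT and at 35.6, 49.3, 38.4, 50.5 and 46.2 TPM in GR KO. It was the 1 gene of 14 tested integrin and adhesion genes that passed (log2 -0.85, limma adjusted p = 0.0198), and the call ended without WT replicate 2 or 3. Its partner chain gene Itgb8 did not pass (46.6 ± 11.6 and 39.0 ± 4.36 TPM). Amica1, an adhesion molecule gene, fell from 33.9 ± 5.39 to 16.3 ± 2.61 TPM (limma adjusted p = 0.0102, lost without WT replicate 1). The neighbouring GTPase genes Gimap4 (101 ± 5.57 to 52.0 ± 13.9 TPM) and Gimap5 (17.1 to 20.2 TPM in GR WT, 9.03 to 13.3 TPM in GR KO) belong to a family known from lymphocytes. Both fell (limma adjusted p = 0.0301 and 0.0443). Gimap4 lost its call without any 1 of the WT replicates or KO replicate 3 or 4, and Gimap5 on omitting any library but KO replicate 1. The lymphocyte adaptor gene Hsh2d (-0.90) and the B lymphocyte gene Klhl6 (-0.49) fell as well. Klhl6 lost its call with any 1 library left out, and Hsh2d without WT replicate 1 or 2 or KO replicate 1, 2, 3 or 5. All 27 tested T cell receptor signalling genes are among the described genes. None passed by limma or by voom, and 2 had an unadjusted p below 0.05. Their median was 0.11, while omitting WT replicate 1 gave 0.03 and omitting WT replicate 2 gave 0.16.

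A few lower genes outside these groups were abundant. Fam107b, whose product is poorly characterised, was at 727, 865 and 744 TPM in GR WT and at 411, 449, 467, 578 and 453 TPM in GR KO (log2 -0.73, limma adjusted p = 0.00969, held in all 19 settings). Adam19, a membrane metalloprotease gene, was at 31.5, 52.9 and 36.9 TPM and at 15.4, 17.3, 14.7, 19.5 and 14.2 TPM (log2 -1.24, limma adjusted p = 0.00505), also in all 19 settings. For both genes every KO library lay below every WT library. Serinc3, a membrane protein gene, was the most abundant of the 76 genes. It fell from 1058 ± 118 to 779.6 ± 27.4 TPM, a log2 difference of -0.43 (limma adjusted p = 0.04) that survived only the omission of WT replicate 3. Mfap4, an extracellular matrix gene, was at 7.78, 3.56 and 27.8 TPM in GR WT and at 0.646 to 2.38 TPM in GR KO. Its call (limma adjusted p = 0.0488) survived only the omission of WT replicate 2. None of the 20 most abundant of the 3996 genes passed by limma or by voom, among them B2m, Tmsb4x, S100a4 and Ctla4, and 4 had an unadjusted p below 0.05.

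On the higher side, Ltb (NM_008518, chromosome 17, 35194507 to 35196305, plus strand) encodes lymphotoxin beta, a membrane ligand that organises lymphoid tissue. It was at 347, 313 and 342 TPM in GR WT and at 500.3, 517, 501, 442 and 554 TPM in GR KO. All KO libraries exceeded all WT libraries. The log2 difference was 0.59 (95% interval 0.39 to 0.79, limma adjusted p = 0.009), and the call held with any single library left out. It was the only one of 21 tested TNF superfamily genes that passed; its partner gene Lta was at 17.4 ± 4.06 and 20.5 ± 5.18 TPM. Stap1, an adaptor gene, rose from 102 ± 14.1 to 159.9 ± 15.1 TPM (log2 0.65, limma adjusted p = 0.0181), a call that ended without WT replicate 2 or 3.

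The remaining higher genes serve varied cell functions. Arl4c, a small GTPase gene, was at 74.6, 85.3 and 87.4 TPM in GR WT and at 120.1, 130.0, 117, 121 and 119 TPM in GR KO (log2 0.55, limma adjusted p = 0.0119, held with any single library left out). Srp19, which encodes a subunit of the signal recognition particle, rose from 73.1 ± 5.31 to 127 ± 17.0 TPM (log2 0.78, limma adjusted p = 0.00832, held likewise). Prelid2 had the largest rise (9.80 to 14.6 TPM in GR WT and 16.5 to 32.8 TPM in GR KO, log2 1.09, limma adjusted p = 0.042), and its call survived only the omission of KO replicate 2. Srp19 and Prelid2 lie 5.07 and 2.39 Mb from Nr3c1 on the same chromosome, as does Cd14, at 2.68 Mb, which fell by 1.82 on the log2 scale, a call that ended without WT replicate 1 or 3. Spcs1, a signal peptidase subunit gene (0.46), Abhd8 (0.62), Limd2 (0.52) and Tprgl (0.41) also rose. The Abhd8 call ended without WT replicate 1 or 3 or KO replicate 5, the Limd2 call without any 1 library except KO replicate 4, the Spcs1 call without any except WT replicate 2, and the Tprgl call without any 1 library. Ubald2 (0.70) and the overlapping Gm7367 (0.68) lie on the same strand, so their reads may be shared and they count as uncertain. Both calls survived only the omission of KO replicate 4.

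Treg identity transcripts were measured at high levels in both groups. Of 17 tested core Treg genes only Il2ra passed by limma or by voom, and 5 had an unadjusted p below 0.05. Their median was -0.12. Of the 15 among the described genes, 11 had a negative log2 difference, with a median of -0.22. Foxp3 was at 159.8, 281 and 241 TPM in GR WT and at 137, 157, 205, 198 and 159 TPM in GR KO. WT replicate 1 lay among the KO libraries. The log2 difference of -0.38 had a 95% interval from -0.79 to 0.02 (limma adjusted p = 0.381). Ctla4, whose product removes costimulatory ligands from other cells, was at 5397 to 6383 and 3263 to 6442 TPM, with an interval from -0.72 to 0.07 (limma adjusted p = 0.455). For Ikzf2, which encodes Helios, the interval ran from -0.47 to 0.24 (limma adjusted p = 0.801). Tigit, an inhibitory receptor gene, was at 491 ± 83.2 and 592 ± 51.1 TPM (limma adjusted p = 0.321). The intervals of Foxp3 and Ctla4 allow a fall larger than that of Il2ra.

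None of 17 tested tissue Treg genes passed by limma or by voom, and 4 had an unadjusted p below 0.05. Their median was -0.13, or -0.21 without KO replicate 4 and -0.06 without WT replicate 2. Penk, which encodes proenkephalin, had the smallest p of them. It was at 75.4 to 86.6 TPM in GR WT, at 50.9 to 55.6 TPM in 4 KO libraries and at 75.3 TPM in KO replicate 3 (limma adjusted p = 0.125), and it passed without that library. Gata3, a transcription factor gene of skin Treg cells, was at 131 ± 15.6 and 103 ± 19.7 TPM (limma adjusted p = 0.352). None of 21 tested helper and effector genes passed by limma or by voom. An unadjusted p below 0.05 was found for 3 of them, close to the 14.1% of all tested genes. Il13, a type 2 cytokine gene, came closest, at 28.7, 29.6 and 28.8 TPM in GR WT and 42.7, 43.4, 43.8, 36.1 and 54.2 TPM in GR KO without overlap (limma adjusted p = 0.0595), and it passed without KO replicate 4.

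Of 28 described interferon response genes, 27 had a negative log2 difference and none passed by limma. At an unadjusted p of 0.05, 17 of them passed, and limma voom on recovered tags called 5 lower (Ifit3, Ifit3b, Mx1, Rsad2 and Usp18). Of 29 tested, only Oasl2, which is outside the described set, passed. The median was -0.47, beside -0.04 for all tested genes, and ranged from -0.61 to -0.39 over 19 other settings. Ifit3, an antiviral gene, was at 73.6, 50.5 and 86.9 TPM in GR WT and 36.2, 36.0, 21.3, 38.7 and 10.4 TPM in GR KO (limma adjusted p = 0.122). Usp18, a feedback gene of the interferon receptor, was at 10.6 to 17.4 and 2.51 to 8.57 TPM (limma adjusted p = 0.101). For both genes WT replicate 3 was highest and KO replicate 5 lowest. None of 18 tested NF-kB pathway genes passed by limma or by voom, and 4 had an unadjusted p below 0.05. Their median was -0.12; leaving out WT replicate 1 gave -0.30 and leaving out WT replicate 2 gave -0.06. Tnfaip3, an inhibitor gene of that pathway, was at 1495 ± 270.0 and 1164 ± 204 TPM (limma adjusted p = 0.331).

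**Figure D4:**
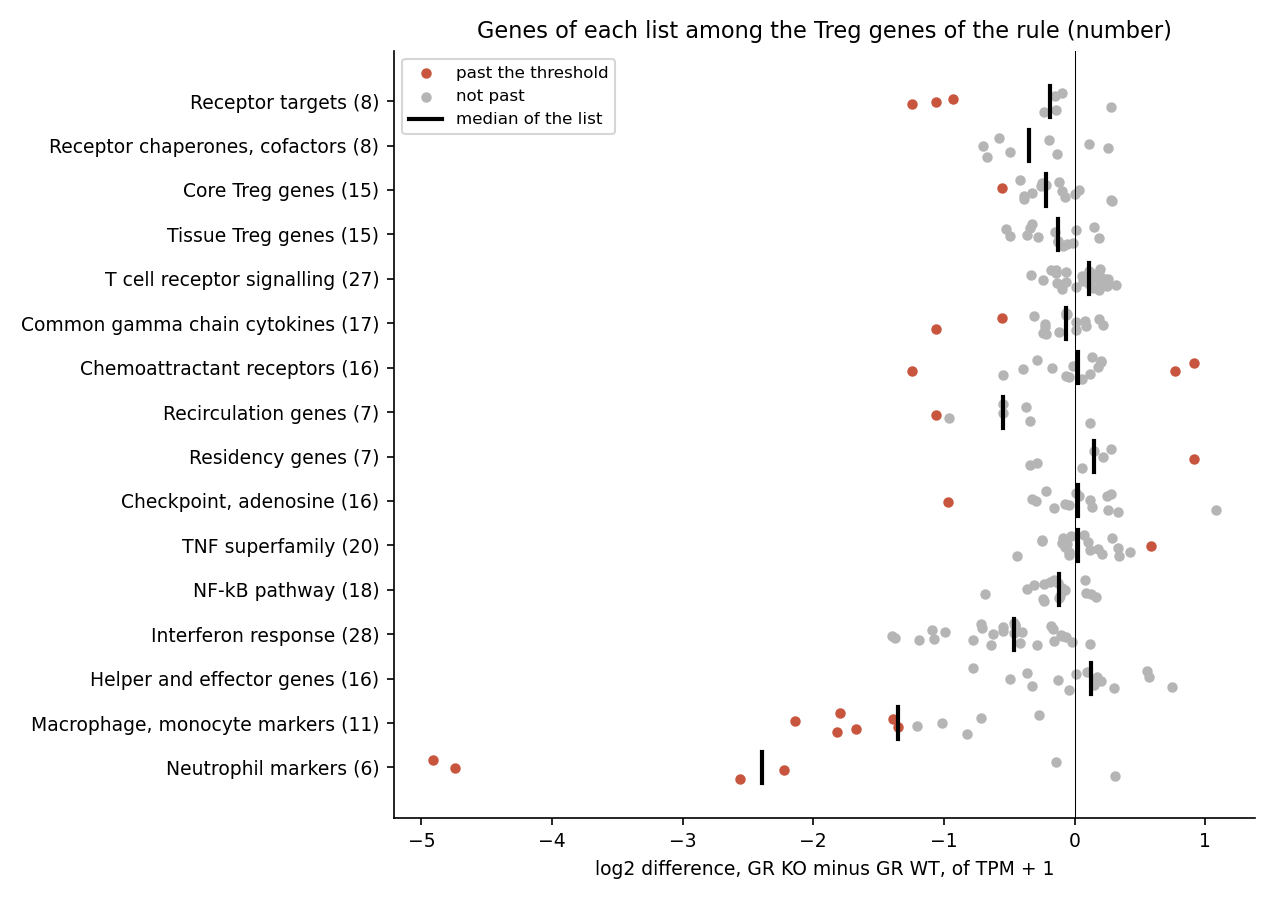
Each row is a gene list and each point 1 of its genes among the 3996, placed by the log2 difference of GR KO minus GR WT; red points passed the limma threshold, black bars are the medians of the genes drawn and the number in brackets is how many they are. T cell receptor signalling genes lie around 0, interferon response genes lie left of 0 with none red, and the macrophage and neutrophil markers lie farthest left.

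Genes known mainly from myeloid cells held 4 of the 5 largest differences, although some of these genes are also expressed by activated lymphocytes. The other one was the microRNA locus Mir7091, chosen after its values were seen. It was at 21.2, 21.2 and 17.3 TPM in GR WT and at 0, 6.72, 0, 0 and 2.36 TPM in GR KO (log2 -3.44, limma adjusted p = 0.0198). The row is only 78 bases long, so these values rest on few tags. There were 12, 13 and 14 tags in GR WT and 0, 4, 0, 0 and 2 in GR KO. Its call ended without any 1 of the WT replicates, and voom did not call it. S100a9, which encodes a calcium-binding protein of neutrophils and monocytes, was at 185, 50.6 and 159 TPM in GR WT and at 11.5, 0, 3.07, 0 and 15.3 TPM in GR KO. WT replicate 2 stood far below the other controls. The log2 difference was -4.91 (SE 0.91, limma adjusted p = 0.0212), and the calls of S100a9 and of its partner S100a8 (-4.74, limma adjusted p = 0.0109) ended without WT replicate 1 or 3.

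The lectin receptor gene Clec4e, which encodes Mincle, was at 18.7, 13.8 and 21.7 TPM in GR WT and at 3.19, 0.418, 1.54, 0.148 and 2.02 TPM in GR KO. Its log2 difference of -3.09 (limma adjusted p = 0.00309) held in all 19 settings, as did those of its neighbour Clec4d (-2.56) and of Slfn4 (-2.81), a Schlafen gene of myelopoiesis. Slfn4 was at 16.9 to 25.4 TPM and 1.29 to 5.15 TPM. The membrane-spanning genes Ms4a4a, Ms4a4c, Ms4a6c and Ms4a6d lie within 229 kb and all fell. Ms4a6d was at 28.0, 21.2 and 23.6 TPM in GR WT and at 3.51 to 5.80 TPM in GR KO (log2 -2.24, limma adjusted p = 0.000924). Ms4a6c (-1.48) lost its call without WT replicate 1, and the other 3 held in all 19 settings.

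Inflammatory mediators and receptors for immune complexes fell with them. Il1b, the interleukin 1 beta gene, was at 239.7, 155 and 316 TPM in GR WT and at 64.8, 46.2, 26.1, 48.3 and 65.2 TPM in GR KO (log2 -2.23, limma adjusted p = 0.00333). Its antagonist gene Il1rn fell by 2.24 on the log2 scale (19.2 ± 9.88 to 3.16 ± 1.36 TPM). Cxcl2, a neutrophil chemoattractant gene, was at 122, 113 and 128 TPM and at 14.6 to 36.2 TPM (log2 -2.21, limma adjusted p = 0.00214). The 3 controls were close together for Cxcl2, WT replicate 2 included. Fcgr2b, the inhibitory Fc receptor gene, fell by 1.63 and Plaur, the urokinase receptor gene, by 1.87. The receptor genes Lilr4b (-2.07) and Lilrb4a (-1.76) are close paralogs whose reads the counting may have split. Acod1, whose enzyme makes itaconate, fell by 1.86. Ptgs2 (-2.56), the inducible cyclooxygenase gene, Ccl9 (-1.93) and Ifi204 (-1.81) lost their calls without WT replicate 1 or 3, Ifi204 also without KO replicate 2 or 3, and Aif1 (-1.98) without WT replicate 3.

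Marker lists of other cell types show how widely this pattern extends. Of 17 tested macrophage and monocyte markers 9 fell by limma, 6 of them among the described genes, with a median of -1.39. For 13 of the 17, every KO library lay below every WT library, while C1qa, C1qb, C1qc and Ctss overlapped. C1qc was at 3.64 to 12.5 TPM in GR WT and 0.927 to 11.5 TPM in GR KO. Lyz2, the lysozyme gene, was at 215, 127 and 199.9 TPM in GR WT and 43.0, 37.6, 56.3, 31.5 and 108 TPM in GR KO, and its call ended without WT replicate 1 or 3 or KO replicate 1 or 2. The defining markers Csf1r and Adgre1 were low in both groups, at 3.41 to 6.02 and 0.477 to 3.08 TPM for Csf1r and at 3.59 to 9.61 and 0.607 to 3.06 TPM for Adgre1. Neither overlapped between the groups. They did not pass by limma on log2(TPM + 1) (adjusted p = 0.138 and 0.0968), and limma voom on recovered tags called both lower. Of 8 tested neutrophil markers 4 fell, S100a8, S100a9, Il1b and Clec4d. The median of the 8 was -1.70, or -1.10 without KO replicate 2. The other tested neutrophil markers did not pass. Mmp9 had means of 17.3 TPM in GR WT and 21.8 TPM in GR KO, with overlap. Ltf was at 6.53 and 5.95 TPM and Camp at 1.195 and 1.35 TPM, also with overlap. Csf3r was lower in every KO library, with means of 2.26 and 0.298 TPM. Cxcr2 was too low to be tested, at 0.084 to 1.456 TPM in GR WT and 0 in all KO libraries. Of 12 tested keratinocyte markers 8 fell. Fibroblast marker sums were 144 to 386 TPM and 45.5 to 165 TPM, and those of dendritic and Langerhans cells 525 to 1019 TPM and 424 to 648 TPM. Cd74 made up much of the dendritic and Langerhans sums, at 287 to 441 TPM in GR WT and 241 to 355 TPM in GR KO. Conventional T cell markers summed to 344 to 402 TPM in GR WT and 357 to 442 TPM in GR KO, and NK and CD8 T cell markers to 136 to 183 and 175 to 267 TPM. Nkg7 made up most of the NK and CD8 sums, at 112 to 149 TPM in GR WT and 120 to 198 TPM in GR KO. The mast cell markers Ms4a2, Fcer1a, Tpsb2 and Mcpt4, were at 0 in all 8 libraries. Only 10 of the 30 lower genes known mainly from myeloid cells are on these lists. With the genes of the lists left out, 50 of the 60 lower genes (1.26% of the rest) and all 16 higher genes (0.405%) were still counted.

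**Figure D5:**
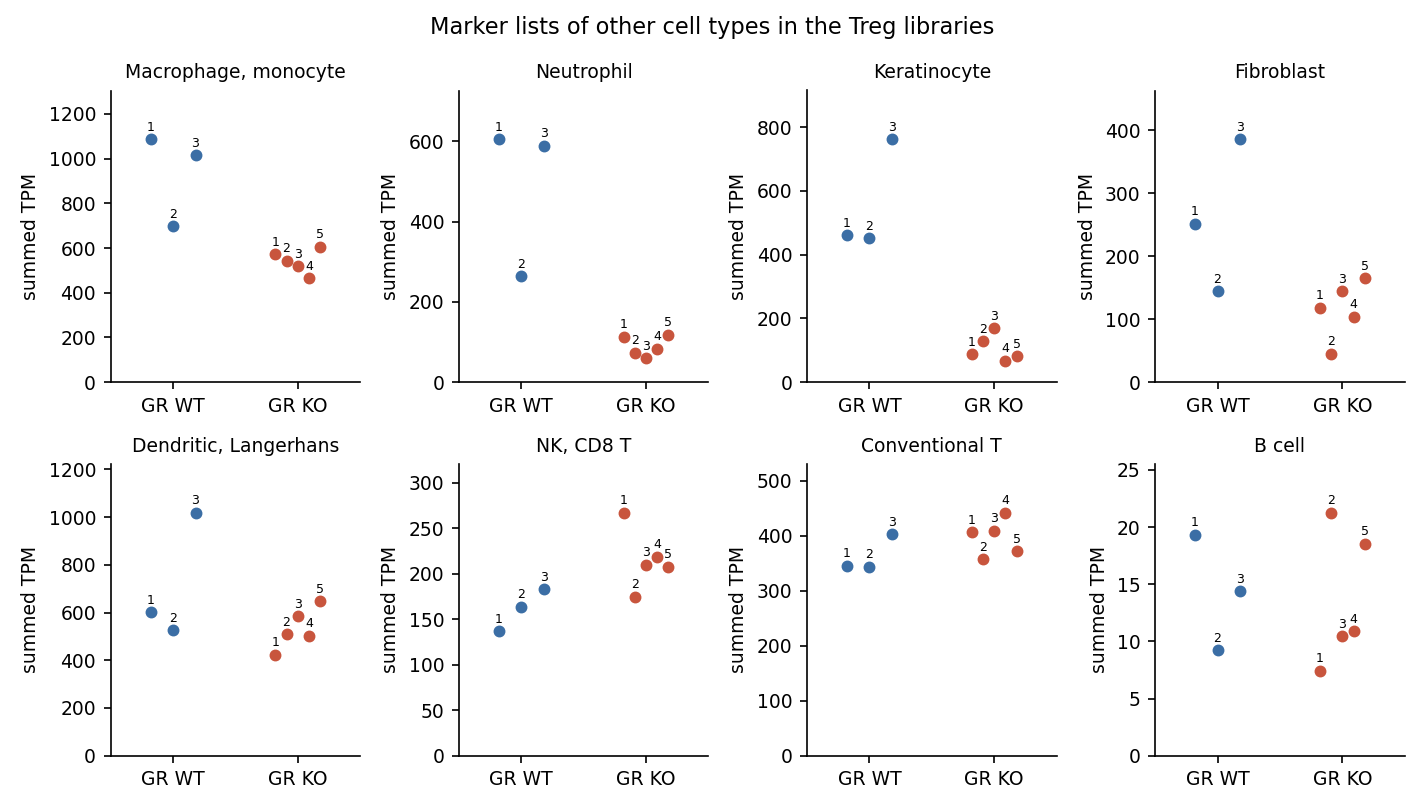
Each panel sums the TPM of 1 marker list in each Treg library, with GR WT in blue, GR KO in red and the replicate number above each point; every y axis starts at 0. The macrophage, neutrophil and keratinocyte sums of all KO libraries lie below those of all WT libraries, the conventional T cell and B cell sums overlap, and WT replicate 2 is the lowest control for macrophage and neutrophil markers.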

How the data were processed

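RNA of sorted skin Treg cells (3 GR WT and 5 GR KO libraries) and HFSC (3 and 3) was sequenced as stranded mRNA libraries, per the labels' protocols. STAR, Trim Galore, HOMER and FastQC, with the build mm10, appear in the submitters' processing notes; their versions and the counting settings were not given in sources used here. The authors deposited 1 TPM table per cell type. TPM times transcript length, divided by what 1 tag is worth, gave whole tags within 0.1 for 100% of low values, and thus 9167608 to 14461504 tags per Treg library. Of values up to 20 tags, 88.2 to 89.9% were even, so most tags come in pairs. A floor of 3 tags is 0.138 to 0.207 TPM for a transcript of 2000 bases, which covers counting error only.

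Within the Treg table, 11579 genes averaging 1 TPM or more entered a fit by limma 3.58.1 (R 4.3.3, trended prior) on log2(TPM + 1), two-sided, without covariates. P-values were Benjamini-Hochberg adjusted over all tested genes, with a threshold of 0.05, and fold changes on this scale understate the change of low genes. Intervals are 95%. The fit was tested on simulated data first. Genes were named by rule: up to 15 higher and 15 lower called genes by size, leaving out markers of other cell types, unnamed loci and small RNAs, the 10 most abundant called genes, and up to 4 per list by smallest p. Other genes described, and the role groups, were chosen after their values were seen. The members and the 43 gene lists were chosen with earlier results of these data known, and 682 of 683 list entries matched a row. Alternatives were 17 planned settings (pseudocount, filters, scalings, prior, sample weights, replicate block, each library left out) and 2 chosen after seeing the data (limma voom on recovered tags, and testing only genes below the control Treg mean in HFSC). The result for 1 gene is not reported here.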

Additional observations from a re-analysis of the deposited data

Results flagged for a closer look

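Of 108 sets of 5 GR KO values examined, 8 held a library far from the other 4, and chance alone marks about 1 in 20 sets. Penk was at 75.3 TPM in KO replicate 3 and at 50.9 to 55.6 TPM in the others. Icos was at 1532 TPM in KO replicate 3 and at 1919 to 2027 TPM in the others. Hsd11b1 was at 126 TPM in KO replicate 1 and at 98.1 to 106 TPM elsewhere. Slfn4 was at 5.15 TPM in KO replicate 1 and at 1.29 to 2.26 TPM elsewhere. The endothelial marker sum was 27.2 TPM in KO replicate 1 and 16.4 to 19.2 TPM elsewhere. Plaur was at 4.72 TPM in KO replicate 4 and at 1.44 to 2.15 TPM elsewhere. The unnamed locus 2810474O19Rik was at 39.7 TPM in KO replicate 4 and at 25.2 to 27.5 TPM elsewhere. Ptgs2 was at 5.63 TPM in KO replicate 5 and at 1.32 to 2.57 TPM elsewhere.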

How the results depend on the processing

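All 76 called genes kept their direction in the 19 other settings, and 16 passed in every one. The count of higher genes among the 3996 (16) was 10 with no filter on low values, 33 by limma voom on recovered tags and 7 when HFSC had to lie below 0.1 of the Treg mean. With libraries left out it ranged from 6 to 15, with 6 without WT replicate 1, 7 without WT replicate 3, 9 without KO replicate 2, 8 without KO replicate 3 and 6 without KO replicate 5. The count of lower genes (60) was 79 by voom and 45 when HFSC had to lie below 0.1 of the Treg mean. With libraries left out it ranged from 30, without WT replicate 3, to 60. Over all tested genes, the 23 higher became 39 by voom and ranged from 11 to 26 with libraries left out, and the 152 lower became 96 with a filter at 5 TPM and ranged from 73 to 165. Of the 76 genes, 36 still passed without WT replicate 1 and 33 without WT replicate 3. The adjusted p of Nr3c1 was 0.0448 with median ratio scaling and 0.0191 by voom, and 0.027 to 0.276 with libraries left out.

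With the replicate number as a block, 3 higher and 37 lower of the 3996 genes passed, 4 and 74 over all tested genes, and the adjusted p of Nr3c1 was 0.0406. Of the 76 calls, 28 held with the block, and those of Il2ra, Ltb, Arl4c and Srp19 were lost in that setting alone. The labels do not say whether a number pairs mice. Deviations of same-numbered libraries correlated at 0.17, 0.0873 and -0.117, and those of differently numbered libraries at -0.243 to 0.177. So few correlations cannot decide whether the numbers pair libraries. The cause of these changes was not tested.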
